A study of Rattus norvegicus with 4 samples.

Results

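The 10 genes of the Fos, Jun and Egr families described here were Fos, Fosb, Fosl1, Fosl2, Jun, Junb, Jund, Egr1, Egr2 and Egr3, taken by name with every probe that carries one of their transcript accessions. They were measured by 15 of 45598 probes and are 10 of 16575 genes that could be named. The RNA came from NR8383, a line of alveolar macrophages started from a rat's lung washings, which had been kept for 4 h with Printex90, a carbon black powder. The labelled dose was 0.9 cm2/cm2. The sample titles carry ALI, usually short for air-liquid interface, while the treatment protocol describes flasks. How the exposure was done is not stated beyond that. The labels place the cells at 20 passages and describe cultures in which adherent and floating cells were mixed. One group of 4 biological replicates, each on 1 single-colour array, was analysed, and the untreated cells of the design were not analysed here. No value below is therefore a change caused by the particles, and no test between groups was made.

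Fos and Jun proteins pair through leucine zippers to form the transcription factor AP-1, and EGR proteins are zinc finger factors that bind GC-rich DNA. Several of these genes are immediate early genes, which are transcribed within minutes of a stimulus without new protein synthesis and whose RNA is mostly short-lived. Kinases of the ERK, JNK and p38 cascades act on them through factors such as SRF and ELK1 at their promoters. In macrophages AP-1 and EGR factors take part in differentiation and in the transcription of cytokine and protease genes.

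Of the 7 members with a promoter in the RefSeq table (GRCr8 build, 250 bases before to 50 after the start), the 4 shown carry a searched motif, with the matched letters in capitals. The motifs were read on both strands, and no matches overlapped. They were the CArG box bound by SRF, the EGR site GCGNGGGCG, the cyclic AMP response element TGACGTCA and the AP-1 site TGANTCA. The 4 windows shown are all those with a match. The level-setting probes of Egr2, Fosl2 and Jund all read highest on the same array, as described further on. Those of Egr1 and Junb did too, but the Junb window held no match. A link between motifs and array readings was not tested. Egr1 is set beside Egr2 for a shared box. Each is written 5′ to 3′ on the strand named.
Egr1, chr18:26736828-26737127, plus strand: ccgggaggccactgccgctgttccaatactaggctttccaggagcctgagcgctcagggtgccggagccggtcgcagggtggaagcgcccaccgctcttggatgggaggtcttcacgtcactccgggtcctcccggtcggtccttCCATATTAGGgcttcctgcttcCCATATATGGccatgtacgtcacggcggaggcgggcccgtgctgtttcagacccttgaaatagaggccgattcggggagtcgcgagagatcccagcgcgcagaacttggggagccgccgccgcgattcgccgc
Egr2, chr20:21054392-21054691, minus strand: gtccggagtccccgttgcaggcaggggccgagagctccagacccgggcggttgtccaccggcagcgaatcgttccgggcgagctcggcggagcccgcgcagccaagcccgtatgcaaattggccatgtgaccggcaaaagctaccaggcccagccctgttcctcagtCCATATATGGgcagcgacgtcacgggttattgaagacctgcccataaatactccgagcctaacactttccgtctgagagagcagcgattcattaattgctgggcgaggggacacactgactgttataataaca
Fosl2, chr6:30039220-30039519, minus strand: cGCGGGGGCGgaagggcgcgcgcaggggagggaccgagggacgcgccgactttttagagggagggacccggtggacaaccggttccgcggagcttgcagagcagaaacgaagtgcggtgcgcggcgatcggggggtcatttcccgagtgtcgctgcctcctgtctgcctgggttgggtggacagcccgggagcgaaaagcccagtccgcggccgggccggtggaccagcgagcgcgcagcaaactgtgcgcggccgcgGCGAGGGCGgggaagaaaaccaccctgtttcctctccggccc
Jund, chr16:18769722-18770021, minus strand: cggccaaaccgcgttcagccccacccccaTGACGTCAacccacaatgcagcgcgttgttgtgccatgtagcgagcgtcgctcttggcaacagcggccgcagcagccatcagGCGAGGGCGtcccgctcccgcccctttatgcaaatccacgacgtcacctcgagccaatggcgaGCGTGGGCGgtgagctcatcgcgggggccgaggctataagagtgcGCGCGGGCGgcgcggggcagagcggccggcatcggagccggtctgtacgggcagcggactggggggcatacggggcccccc
The Egr1 window held 2 CArG boxes and the Egr2 window held 1. The letters CCATATATGG stood at the same distance from the start in both genes, with the first base at -83. A CArG box occurred in 1.64% of all 33469 promoter windows. The EGR site was found 3 times in the Jund window and 2 times in the Fosl2 window, and in 4.98% of all windows. Jund also held the cyclic AMP response element once, against a share of 1.83% of all windows. None of the searched motifs was found in the windows of Junb, Fosb and Fosl1. The AP-1 site, which 7.33% of all windows held, occurred in none of the 7. These matches describe letters in the windows, and binding was not measured.

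A level is the log2 intensity of a probe relative to the 75th percentile of its array, so that a level of 0 lies at that percentile. A gene takes the level of its probe with the highest mean. No gene's level is ranked against another's, since each rests on its own probe. A probe was detected on an array where the scanner software marked a spot as well above background. By this rule 6 of the 10 genes were detected on all 4 arrays, namely Fos, Fosl2, Jun, Junb, Jund and Egr2, against a background of 50.8% of all named genes. Egr1 and Egr3 were detected on 3 arrays each, and Fosb and Fosl1 on none, as were 36.9% of all named genes. Among the 15 probes, 11 were detected on all 4 arrays, against 37.5% of all probes. All 15 belong to named genes, and of the 21102 probes of named genes 10352 were detected on all 4 arrays. With RNA taken from whole cultures, fewer cells that express a gene and less RNA per cell cannot be told apart.

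**Figure D1:**
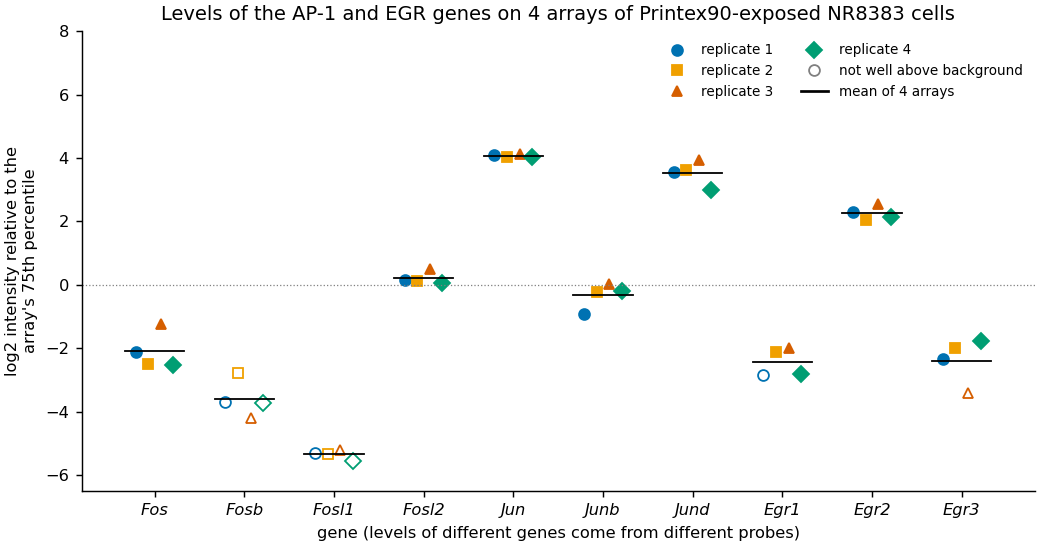
Level of each gene (log2 intensity relative to the array's 75th percentile, vertical axis) on the 4 arrays of exposed cells, with filled symbols for spots well above background, open symbols for those that were not, and a bar at the mean. The 4 Jun values lie between 4.02 and 4.12, while all values of Fosb and Fosl1 are open.

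The arrays detected between 8914 and 9982 named genes each and had no saturated spot. Of 8 macrophage markers, 7 were detected on all 4 arrays, among them Cd68, and Adgre1 was detected on 2. The alveolar macrophage markers gave 4 of 6 measured, and the particle receptor gene Marco was detected on 1 array. None of 7 epithelial markers and none of 3 measured neutrophil markers was detected on all arrays. The counts were 1 of 5 for fibroblasts, 3 of 4 for endothelium and 1 of 3 measured for T and B cells. Small regions of each array were brighter than on the others and covered between 0.397% and 2.84% of the spots, most on replicate 3.

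Jun, which encodes the AP-1 subunit c-Jun, had the smallest SD of the detected members in the scaling reported. Its SD was 0.10 with normexp background correction, where Fosl2 had 0.09, and 0.07 without the bright regions, where Egr2 had 0.06 on its other probe. Its probe A_42_P741027 read 4.11, 4.04, 4.12 and 4.02 on replicates 1 to 4, a mean of 4.07 ± 0.05 (SD, n = 4). The 4 arrays spanned 0.10 log2 units, or 1.08-fold. Of the 8421 genes detected on all 4 arrays, 3.53% had a smaller SD. That rank sets a mean of 10 spots against genes mostly read from fewer. Of the 17093 probes detected on all 4 arrays, 1067 are printed 10 times. Since A_42_P741027 is printed 10 times on each array, its error within an array is also known. The SD between the 10 spots was 0.181, 0.214, 0.074 and 0.122 on replicates 1 to 4, larger on every array than the SD of 0.052 between the array means. The standard error of an array's mean over its spots was between 0.023 and 0.068, so the differences between the array means were of the size of the error within an array. The second Jun probe, A_64_P053353, read 3.62, 3.63, 3.40 and 3.68 and was lowest on replicate 3, the array on which the first probe was highest. This second probe has 1 spot per array and an SD of 0.13.

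Jund encodes JunD, a Jun protein that many resting cells contain, and its probe A_64_P119675 read 3.57, 3.63, 3.92 and 3.01 on replicates 1 to 4, with a mean of 3.53 ± 0.38 (SD, n = 4). Replicate 4 was low and replicate 3 high, 1.89-fold apart, and 93.5% of detected genes had a smaller SD. The other Jund probe, A_43_P15517, read -1.22, -0.96, -1.00 and -1.18, and did not show the same order of arrays. It was highest on replicate 2 and had an SD of 0.13.

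Junb encodes JunB, an AP-1 subunit that is itself quickly induced by many stimuli. Its single spot read -0.92, -0.23, 0.03 and -0.20 on replicates 1 to 4, with a mean of -0.33 ± 0.41 (SD, n = 4). Replicate 1 stood below the other 3 arrays, and the highest and lowest arrays were 1.93-fold apart. Its spread was above that of 94.9% of detected genes.

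Fos, the founding member of its family and the classic partner of Jun in AP-1, read -2.11, -2.51, -1.24 and -2.53 on replicates 1 to 4, a mean of -2.10 ± 0.60 (SD, n = 4). Replicate 3 was the highest array, 2.43-fold above the lowest, and 98.8% of detected genes had a smaller SD. Its gap to the next array was 0.676 of the range, below the 95% critical value of Dixon's outlier test, and no member exceeded that value. The probe is printed 2 times on each array, and the spots disagreed. The first spot, near the array's edge, read -1.91, -1.90, -0.49 and -2.10. The second, in the interior, read -2.31, -3.12, -2.00 and -2.95. On replicate 3 the spots differed by 1.51 log2 units, or 2.86-fold, and on the other arrays by 0.40 to 1.22. The first spot lay in a region of replicate 3 that was brighter than on the other arrays, where the neighbouring spots stood a median of 1.55 above their own 4-array means. Around the second spot that median was 0.14. Replicate 3 was highest on both spots, by 1.48 over the mean of the other arrays on the first and by 0.79 on the second. On replicate 2 the second spot was not well above background, so that without the bright regions of any array Fos was detected on 3 arrays in place of 4.

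**Figure D2:**
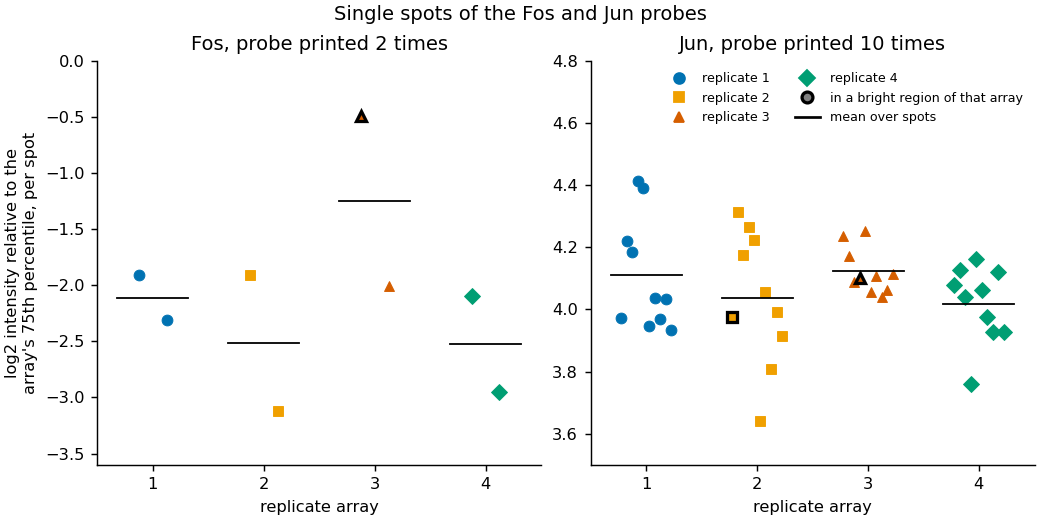
Level of every spot (log2 intensity relative to the array's 75th percentile) of the Fos probe, left, and of the Jun probe printed 10 times, right, on each replicate array, with a bar at the mean of the spots and a black outline where the spot lies in a bright region of that array. The outlined Fos spot reads -0.49 and its partner on the same array -2.00, while the outlined Jun spot of replicate 3 lies among the others.

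A Jun spot on replicate 3 also lay in a bright region, with neighbours a median of 2.56 above their means. That spot read 4.10, within the range of 4.04 to 4.25 of the 10 spots on that array. Its intensity was 1732, against 72.1 for the Fos spot in a bright region. The part of the bright region in the Fos value was not tested beyond these readings.

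Fosl2 encodes Fra-2, a Fos family protein without the transactivation domain of c-Fos, and is covered by 3 probes. The probe that sets its level, A_44_P1152997, read 0.16, 0.13, 0.50 and 0.05 on replicates 1 to 4, a mean of 0.21 ± 0.20 (SD, n = 4). Replicate 3 lay above the other 3 arrays, which ranged from 0.05 to 0.16. A second probe, A_64_P065063, read -0.28, -0.34, 0.00 and -0.25, again highest on replicate 3. The third, A_44_P1082224, read -0.44, -0.18, -0.23 and -0.12, and was highest on replicate 4 instead.

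For Fosb and Fosl1, the remaining Fos family genes, no array gave a spot well above background. Fosb read intensities of 7.66, 12.1, 5.44 and 9.55 on replicates 1 to 4. Fosl1, which encodes Fra-1, read 2.53, 2.09, 2.71 and 2.68, while the median of the 308 negative-control spots was between 2.72 and 3.19. The Fosl1 signal thus lay below the median of the negative controls on every array, and that of Fosb above their 95th percentile of 3.02 to 3.51. Nothing is read from the differences between arrays for either gene.

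Among the EGR genes, Egr2 gave a clear signal. Egr2, also known as Krox20 and required for hindbrain patterning and myelination in mice, read 2.28, 2.06, 2.55 and 2.15 on replicates 1 to 4, with a mean of 2.26 ± 0.22 (SD, n = 4). It was again highest on replicate 3, at 1.41-fold over the lowest array, and 69.0% of detected genes had a smaller SD. Its other probe, A_44_P1164501, read -1.27, -1.24, -1.38 and -1.36, a range of 0.14 with replicate 3 lowest. The main Egr2 spot lay in a region called bright on replicate 4, where its neighbours stood at a median of -0.01 and its own value was not high.

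Egr1, the factor also called Krox-24 and among the best-known immediate early genes, read -2.86, -2.12, -2.00 and -2.81 on replicates 1 to 4, with a measured mean of -2.44 ± 0.45 (SD, n = 4). It was well above background on replicates 2, 3 and 4. Replicates 2 and 3 read close together, and replicates 1 and 4 lay lower and close together. Egr3, a relative that binds the same DNA site as Egr1, read -2.36, -2.00, -3.43 and -1.78, a mean of -2.39 ± 0.73 (SD, n = 4). It was detected on replicates 1, 2 and 4 and lowest on replicate 3, the array on which Egr1 was highest. Intensities behind these levels were 13.7 to 25.3 for Egr1 and 9.39 to 37.1 for Egr3. The dimmest non-control spot marked well above background had an intensity between 9.17 and 10.3, depending on the array.

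Set against the mean of its own 4 arrays, each of the 6 detected genes was highest on replicate 3. Among all 8421 genes detected on all arrays, 31.5% were highest there. The filter for detection on all 4 arrays used the replicate 3 readings, so it bears on the count of 6. Egr3, with a deviation of -1.04 on replicate 3, was lowest on that array and missed detection there alone. Egr1, highest on replicate 3, missed detection on replicate 1 alone. The median deviation of the 6 genes on replicate 3 was 0.33 log2 units, against 0.03 for all detected genes. On replicate 4, where 4 of the 6 were lowest beside a background of 29.8%, their median was -0.13, and it was 0.01 on replicate 1 and -0.06 on replicate 2. Fos and Jun were lowest on replicate 4 by a small margin, at -2.53 and 4.02 against -2.51 and 4.04 on replicate 2. With the 75th percentile taken over detected probes, both were lowest on replicate 2. With quantile normalization or normexp, Fos stayed lowest on replicate 4 and Jun was highest there. The count of genes highest on replicate 3 rests on the probe that sets each level. Over the 11 detected probes, 7 were highest on replicate 3, against 31.1% of all detected probes of named genes, and 2 were lowest there. For Jun the highest array exceeded the next by 0.01, less than the error of an array's mean. With all probes of a gene averaged, with quantile normalization or with normexp background correction, 5 of 6 were highest on replicate 3, and Jun was the exception in each. Without the bright regions the exception was Egr2, which was then represented by its other probe.

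**Figure D3:**
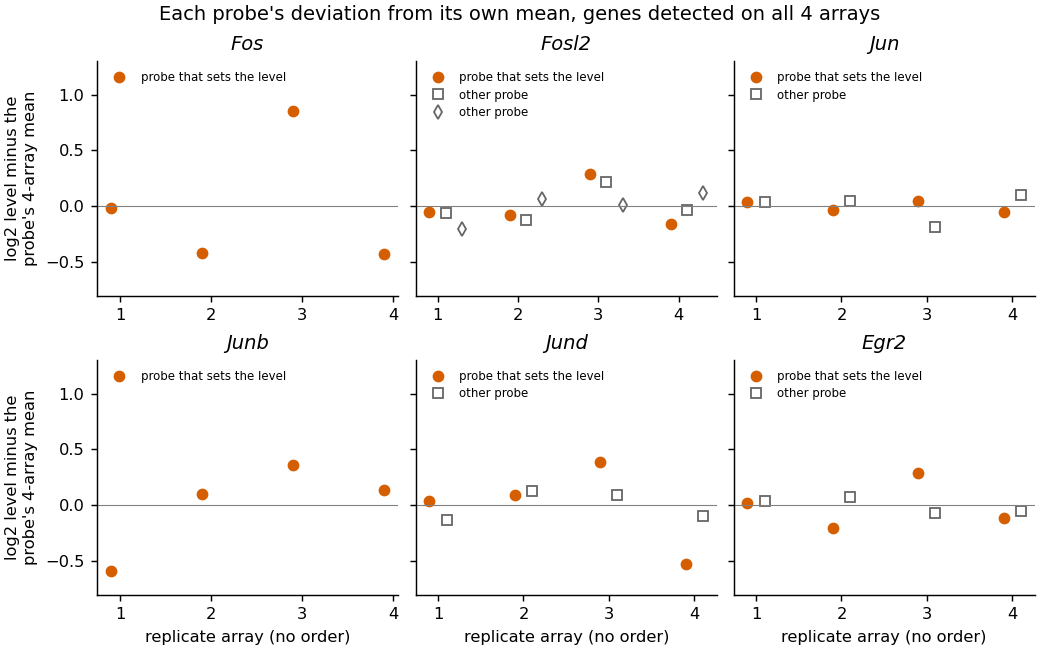
Log2 level of each probe minus that probe's mean over 4 arrays (vertical axis) on each replicate array, for the 6 genes detected on all arrays, with filled circles for the probe that sets the gene's level and open symbols for its other probes. The circles are highest on replicate 3 in every panel, with Fos at 0.85 and Jun at 0.05, while the other probes of Jun and Egr2 are lowest there.

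The median SD of the 6 detected genes was 0.30, against 0.16 over all detected genes. Without replicate 3 it was 0.18, against 0.15 over all detected genes. It was 0.23, against 0.15, without replicate 4 and 0.25, against 0.15, without replicate 1. Without replicate 2 it was 0.35, against 0.16. With all probes of a gene averaged over the 4 arrays it was 0.18, against 0.16. The distance from all genes thus changed with the replicate left out and with the probe rule. Dim genes varied more than bright ones in the whole data set. The median SD was 0.24 among the 2106 detected genes with levels up to -0.13, which include Fos and Junb. It was 0.17 among the 2105 genes up to 1.80, which include Fosl2, and 0.14 among the 2105 genes up to 3.75, which include Jund and Egr2. Among the 2105 genes above that, which include Jun, it was 0.14.

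**Figure D4:**
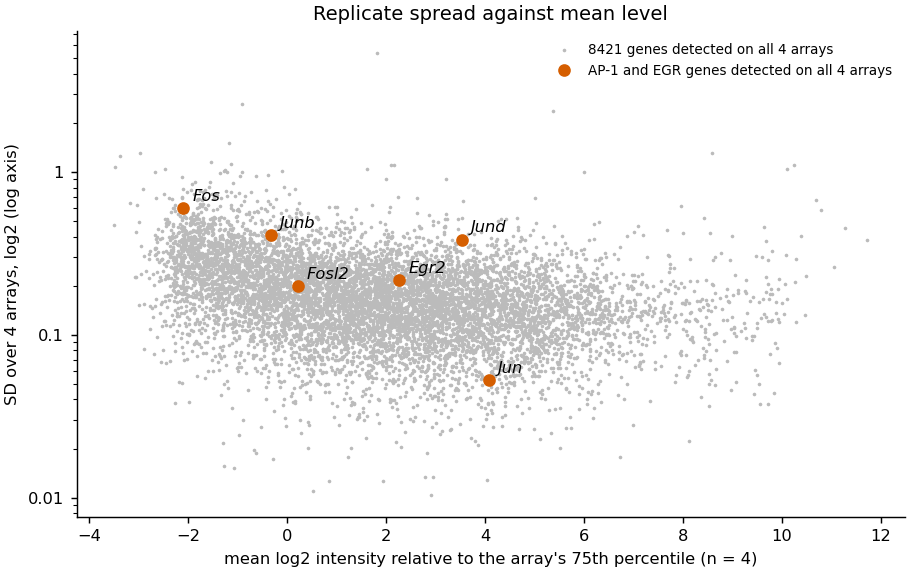
SD over 4 arrays on a log axis against the mean level (log2 intensity relative to the array's 75th percentile) for the 8421 genes detected on all arrays, with the 6 detected AP-1 and EGR genes marked. Fos, Junb and Jund lie toward the upper edge of the cloud at their level, and Fosl2 and Egr2 inside it. Jun, a mean of 10 spots, lies near the lower edge of the cloud.

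Other genes of the pathway were read from 5 lists. Their counts stand beside shares of 50.8% of all named genes detected on all 4 arrays and 36.9% on none. Of all genes detected on all 4 arrays, 31.5% were highest on replicate 3. Of 27 measured early response genes outside the family, 18 were detected on all 4 arrays (66.7%) and 7 on none. Egr4, the remaining EGR gene, was not well above background on any array. Atf3, a stress-induced bZIP factor, read 2.69, 2.68, 2.81 and 2.71 on replicates 1 to 4, and Ier2, an immediate early nuclear protein gene, 4.42, 4.42, 4.73 and 4.38. Both were highest on replicate 3, as were 7 of the 18 detected genes of this list. The median deviation of the list on that array was 0.02.

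The bZIP partners and relatives were detected in 14 of 17 measured cases. Batf, whose protein pairs with Jun proteins in immune cells, read -1.62, -1.65, -1.69 and -1.47 on replicates 1 to 4. Batf3, a close relative of Batf, read 0.91, 1.73, 1.65 and 1.33. Jdp2, which encodes a Jun-binding repressor of AP-1, read 3.41, 3.81, 3.57 and 3.80. All 3 were highest on replicate 2 or 4. In this list 4 of 14 genes were highest on replicate 3, with a median deviation of -0.02.

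Among the kinases and SRF-ELK factors upstream of these promoters, 15 of 16 measured genes were detected. Srf, whose protein binds the CArG box shown above for Egr1 and Egr2, read 3.10, 2.91, 3.14 and 2.93 on replicates 1 to 4, with an SD of 0.12. Elk1, an ERK-activated partner of SRF, read -0.49, 0.17, -0.12 and -0.16, and its relative Elk3 read 0.08, 0.07, -0.15 and 0.27. Of the 15 genes, 3 were highest on replicate 3, and their median deviation there was -0.01. All 8 genes of corepressors and turnover were detected. Nab1 and Nab2, which encode corepressors that bind EGR proteins, differed in pattern. Nab1 read 3.44, 3.47, 2.71 and 3.24, lowest on replicate 3, and Nab2 read 3.80, 3.29, 3.90 and 3.48, highest there. Fbxw7, a ubiquitin ligase subunit that marks Jun for degradation, read 1.89, 2.10, 1.63 and 2.15.

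Genes known as AP-1 or EGR1 targets were detected in 8 of 14 cases (57.1%), near the 50.8% of all named genes. Of those 8, 6 were highest on replicate 3, beside 31.5% of all detected genes. Their median deviation on that array was 0.31, beside 0.33 for the 6 members and 0.03 for all detected genes. The list was chosen with earlier results of these data known, and whether its genes follow the members was not tested. Mmp9, a gelatinase, read 0.66, 0.79, 1.06 and 0.41 on replicates 1 to 4. Mmp12, the macrophage elastase, read 2.43, 2.62, 2.43 and 2.66 and was 1 of the exceptions, as was the cyclin gene Ccnd1. Mmp13, a collagenase, was not well above background on any array. The list also holds the cytokine genes Il1b, Tnf and Ccl2. On replicate 3, Il1b deviated from its mean by 0.60, Tnf by 0.34 and Ccl2 by 0.29. Il1b is read from 1 spot, and that spot lay in a bright region of replicate 3. Ccl2 is read from 10 spots, of which 1 lay in such a region. Tnf, Mmp9, Plaur and Cd44, the remaining genes of this list highest on replicate 3, had no spot in such a region. The part of those regions in the values was not tested.

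**Figure D5:**
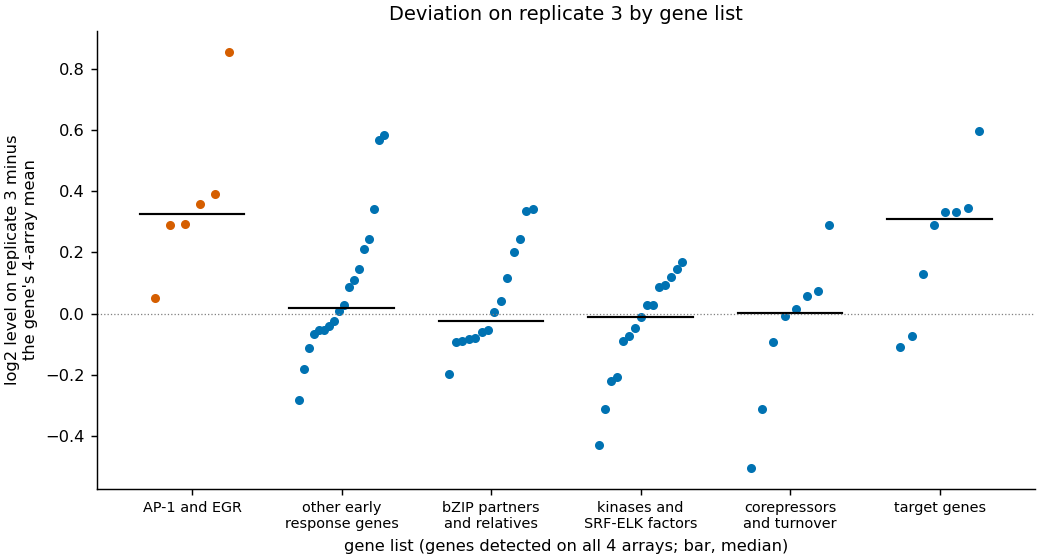
Log2 level on replicate 3 minus the gene's 4-array mean (vertical axis) for the genes detected on all arrays in each list, 1 point per gene, with a bar at the median. The AP-1 and EGR genes have a median of 0.33 and the target genes 0.31, while the medians of the other 4 lists lie between -0.02 and 0.02. The lists were chosen with earlier results of these data known.

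Fos had the largest SD of the detected members, and the genes with the most similar pattern were sought among the other 8415 detected genes by the root mean square distance between deviations on the 4 arrays. The 5 closest were Golph3l, Eif2s3, Pik3cb, Adcy2 and Per2, at distances of 0.072 to 0.11 log2 units. Each is represented by 1 spot, and all 5 spots lay in bright regions of replicate 3. Such regions covered 2.84% of the spots of that array. Of detected genes, 4.31% had at least 1 spot there, a share that includes probes printed several times. When Fos was read from its interior spot alone, the 5 closest genes were Rad23b, Med26, Asl, Dohh and Uqcc4, at distances of 0.09 to 0.14, and 2 of their 5 spots lay in such regions. No gene was common to the 2 sets.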

How the data were processed

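Total RNA of 4 cultures was measured on 1-colour arrays. The submitters' processing notes name Agilent Feature Extraction 11.0.1.1 as the source of the deposited intensity values. These are linear, background-subtracted spot intensities, per the file headers, and the headers record no normalization between arrays. The flags of outlying spots and of spots well above background are those of the deposited files. All 4 arrays share 1 slide and 1 scan, so neither could be tested as a batch. Transcript accessions were matched without version to the RefSeq gene table of GRCr8, which named 21102 probes. Apart from the promoter windows, which are on GRCr8, no gene coordinates are given, because the array grid was built on rn4. Accessions that match several genes were left unnamed.

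Spots flagged as non-uniform or population outliers were left out (750 to 1551 per array), log2 intensities were averaged over a probe's spots and each array's 75th percentile over all probes was subtracted. Bright regions are blocks of 16 rows and 8 columns in which over 10% of unnamed-probe spots stood 1 log2 unit above every other array. Neighbours are spots within 4 rows and columns. The number of arrays, 4, limits the precision. There was no test between groups. The members and lists were chosen with earlier results of these data known. All members were named with every probe, the first 3 measured genes of each list, exceptions beside counts, and the 5 genes nearest in pattern to the most variable detected member. The target genes Il1b, Tnf, Ccl2, Plaur and Cd44 were named outside this rule. Calculations were checked on simulated data. Alternatives were another detection flag, 3 arrays, all probes, flagged spots kept, bright regions removed, other scalings, normexp with an offset of 50 on the median signals (added after seeing the data), and leaving out each replicate. The software was Python 3.11.15 with numpy 2.4.6, pandas 2.3.3 and matplotlib 3.10.9, and R 4.3.3 with limma 3.58.1.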

Additional observations from a re-analysis of the deposited data

How the results depend on the processing

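The count of 6 members detected on all 4 arrays was 5 without the bright regions, when Fos was lost, 6 or 7 without any 1 replicate, 8 when 3 arrays sufficed and 9 with the less strict flag, which called 61.7% of named genes. Under the array median scaling, the median deviation of the 6 detected members on replicate 3 was 0.76, and that of all detected genes was 0.46. A scaling of this kind moves members and all genes by the same constant, so their difference of 0.30 is the same by construction. That difference was 0.18 with all probes of a gene averaged, 0.21 with normexp and 0.31 with quantile normalization. The median SD of the members was 0.18, against 0.16 for all detected genes, with all probes averaged, and 0.55, against 0.39, under the array median, the extremes over the scalings, spot filters and probe rules. Leaving out 1 replicate gave 0.18, against 0.15, without replicate 3 and up to 0.35, against 0.16, without replicate 2. Normexp on mean signals was not run, since the files used here hold median signals, which replaced them. No paired analysis was possible because there is only 1 group. Dim members such as Egr1, Egr3, Fosb and Fosl1 are limited by signal over background.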

Other observations

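Some early response genes outside the Fos, Jun and Egr families also read highest on replicate 3, and those named here were chosen after their values were seen. Ier3, a gene induced by stress and growth factors, read 3.42, 3.76, 4.35 and 3.54 on replicates 1 to 4. Maff, which encodes a small Maf protein, read 2.08, 2.35, 2.93 and 2.08. Neither has a spot in a bright region of that array. Klf4 and Klf6, Kruppel-like factor genes, differed in spread, with SDs of 0.48 and 0.04 over the 4 arrays, and neither was highest on replicate 3.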
